A study of Mus musculus with 6 samples.

Results

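The genes described here are the amino acid and neurotransmitter transporters, taken as every row whose symbol begins with Slc1a, Slc3a, Slc6a, Slc7a, Slc36a, Slc38a or Slc43a followed by a number. The rule found 64 of the 23282 rows, and 3 of these are named for lying opposite a transporter (Slc7a6os, Slc6a19os and Slc36a1os) rather than for being one. The series compares whole kidneys of BALB/c mice with those of C57BL/6 (B6) mice, both inbred laboratory strains, with 3 libraries per strain and, by the series' design text, 3 mice. No treatment, age or sex is given in the labels for either strain. A library was not tied to a named animal in the labels, so the p-values measure the spread between these libraries, which may in part be technical. The Lexogen QuantSeq kit used reads mainly the 3′ ends of polyadenylated transcripts. The comparison is BALB/c against B6.

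The kidney filters free amino acids and takes nearly all of them back in the proximal tubule, where carriers of the brush border bring them into the cell and carriers of the basolateral membrane pass them on to the blood. Many Slc7 carriers work as a light chain bound by a disulfide bridge to a heavy chain of the Slc3 family, which brings the pair to the cell surface. Slc1 carriers take up acidic and small neutral amino acids, Slc6 carriers move neutral amino acids, neurotransmitters and osmolytes together with sodium and chloride, and Slc36, Slc38 and Slc43 carriers handle further neutral amino acids at the surface and in lysosomes.

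The libraries held between 8311235 and 10416325 reads, and the 45S ribosomal RNA row took 12.7% to 15.6% of them. Levels are given as CPM, that is reads scaled so that libraries have similar totals, and 1 read was worth 0.0968 to 0.118 CPM. The summed CPM of 8 proximal tubule markers lay between 16893 and 18528 in B6 and between 16043 and 16860 in BALB/c, without overlap, and 0 of the 8 passed the test while 5 had an unadjusted p under 0.05. Summed markers also kept the strains apart for podocytes (304 to 345 CPM in B6, 440.4 to 476 in BALB/c), stroma and smooth muscle (297 to 363, 217 to 251), endothelium (217 to 254, 192 to 197) and the distal tubule (721 to 864, 668 to 702). The part of these in the transporter differences was not tested. The 8 collecting duct markers summed to 873 CPM in B6 replicate 2 and to 464 to 594 CPM in the other 5 libraries. Most of that excess was Aqp2, at 498 CPM in B6 replicate 2 and 138 to 302 CPM in the others. Aqp3, Scnn1b, Atp6v1b1 and Slc4a1 were lower in every BALB/c library than in any of B6. The strains overlapped for Aqp2, Avpr2, Slc26a4 and Hsd11b2, and 0 of the 8 passed the test. The 6 leukocyte markers summed to 68.5 to 92.6 CPM in B6 against 129 to 154 CPM in BALB/c, most of it from Csf1r (mean 63.0 against 118 CPM). Csf1r and Lyz2 were higher in BALB/c, while Ptprc and Adgre1 did not pass, with log2 folds of 0.40 and -0.74. The strains overlapped for Lyz2. Its call was lost without replicate 2 or 3 of B6 or replicate 1 or 2 of BALB/c (limma adjusted p up to 0.200). The adrenal list summed to at most 6.13 CPM in any library, with Th, Dbh and Cyp11b1 at 0 reads. Xist was read in every library, at 104 to 164 CPM in B6 against 188 to 193 CPM in BALB/c, while Kdm5d, Eif2s3y and Uty had 0 reads and Ddx3y at most 8. Whole kidney RNA cannot tell fewer cells of a type from less RNA per cell. Reads were aligned to mm10, the B6 genome, and whether BALB/c reads were lost where the strains differ in sequence was not tested.

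Of the 64 genes, 40 reached a deposited log2 value of at least 1 in at least 3 libraries and were tested. Among these 40, 10 passed the test at an adjusted p under 0.05, which is 25% against 9.09% of the 13317 genes tested (limma, Benjamini-Hochberg adjustment over all genes tested). Levels were higher in BALB/c for 3 of them (Slc38a6, Slc7a9 and Slc7a7), where 4.17% of all genes tested were higher. The other 7 were lower in BALB/c (Slc7a2, Slc7a13, Slc43a2, Slc6a13, Slc7a8, Slc7a12 and Slc3a2), where 4.93% of all genes tested were lower. The strains did not overlap in 15 of the 40 transporter genes, or 37.5%, against 25.4% of all genes tested. The median log2 fold of the 40 was 0.05, beside 0.00 over all genes tested, and the median size of the log2 fold regardless of sign was 0.35 beside 0.22. Each log2 fold sets BALB/c over B6 in log2(CPM + 1), and low genes therefore show less than their full change. With a variance prior that did not follow the expression level, 3 of the 10 calls remained (Slc38a6, Slc7a13 and Slc7a2), and the other 7 had adjusted p between 0.0650 and 0.250 (limma).

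**Figure D1:**
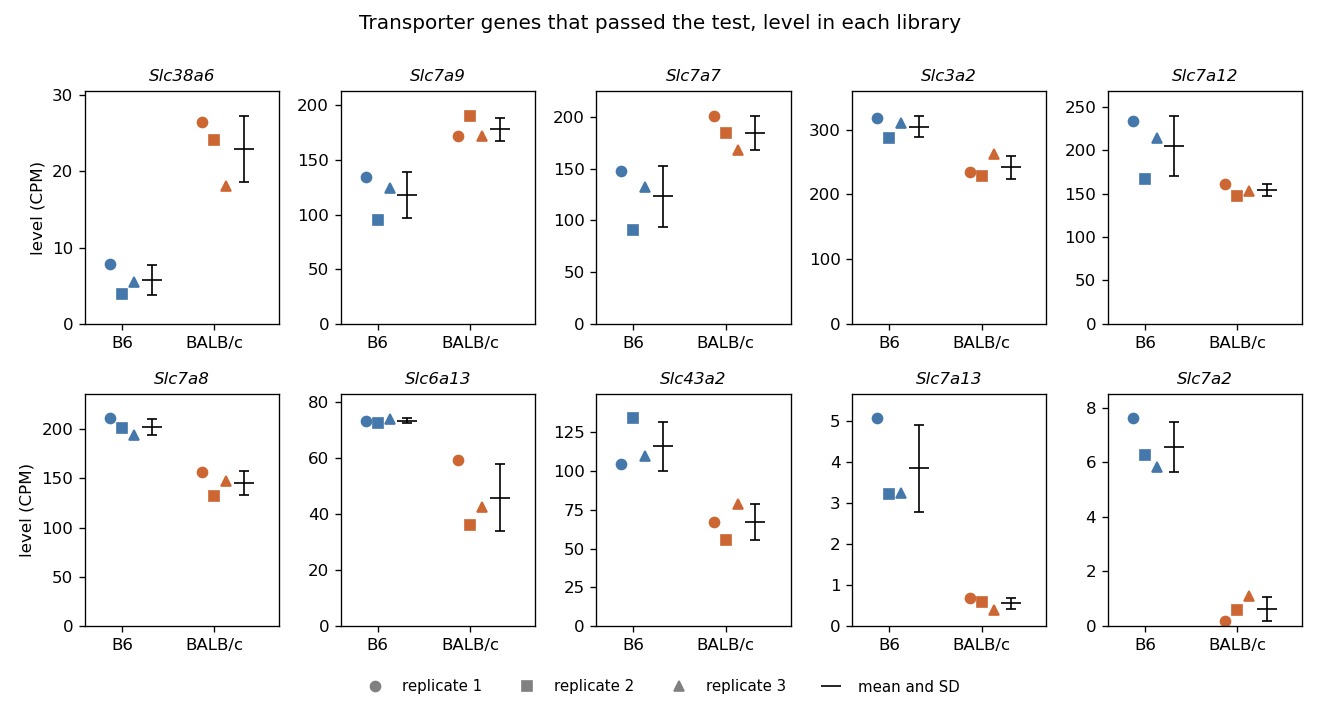
Level in CPM (y axis, from 0) of the 10 transporter genes that passed the test, by strain (x axis). Each symbol is 1 library and its shape the replicate number, and bars are the mean and SD of 3 libraries. The strains do not overlap in any of the 10 panels, and the SD of Slc6a13 is 0.825 CPM in B6 but 11.9 CPM in BALB/c.

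At the brush border 1 light chain was higher in BALB/c and another lower, while their shared heavy chain did not pass the test. Slc7a9 encodes the light chain b0,+AT, which pairs with the heavy chain rBAT, encoded by Slc3a1, to take up cystine and cationic amino acids from the tubular fluid. Loss of either causes cystinuria. Slc7a9 (ENSMUSG00000030492, GRCm38 chr7:35448796-35466036, plus strand) measured 135, 94.7 and 125 CPM in B6 replicates 1, 2 and 3, and 172, 189.9 and 172 CPM in the 3 BALB/c libraries. All 3 BALB/c libraries lay above all 3 of B6, and B6 replicate 2 was the lowest. The mean was 118 ± 20.7 CPM for B6 and 178 ± 10.4 CPM for BALB/c (SD, n = 3 each), and the log2 fold was 0.60 ± 0.12 (SE, limma adjusted p = 0.00140). No exon of another gene overlaps Slc7a9, and none of the 50-base words from its last 300 bases occurs in another gene's transcript.

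Slc3a1, the partner of Slc7a9 (GRCm38 chr17:85028376-85064236, plus strand), did not pass the test. It measured 280.1, 289 and 246 CPM in B6 and 276, 296 and 288 CPM in BALB/c, so that the strains overlapped. Its log2 fold was 0.08 ± 0.09 (SE, limma adjusted p = 0.696). The 3′ end of Slc3a1 overlaps that of Prepl, a peptidase gene on the opposite strand: 100% of its 3′ words are shared with Prepl. Slc3a1 reads came to between 92.7% and 95.6% of Prepl reads in each library. Whether strand was used in counting is not given in the sources used here, so reads from the pair cannot be told apart.

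A further partner of rBAT is Slc7a13, the light chain AGT1 of the straight part of the proximal tubule, which carries aspartate, glutamate and cystine. Slc7a13 (GRCm38 chr4:19818725-19842218, plus strand) measured 5.06, 3.23 and 3.25 CPM in B6 and 0.677, 0.590 and 0.401 CPM in BALB/c. Every B6 library lay above every BALB/c library, and B6 replicate 1 was the highest. These levels rest on 107 reads in B6 and 16 in BALB/c, and mean CPM was 6.92 times higher in B6. Of the 3′ words of Slc7a13, 5.88% occur in other genes' transcripts. Slc7a13 fell by 1.62 ± 0.38 on the log2 scale (SE, limma adjusted p = 0.00629), and without B6 replicate 1 its adjusted p was 0.0513. In mouse kidney Slc7a13 is known to be higher in males and Slc7a12 higher in females. The labels give no sex, but every library read as female. Xist was at 104 CPM or more, Kdm5d, Eif2s3y and Uty had 0 reads, and Ddx3y had at most 8. Of 8 androgen-dependent kidney genes 0 passed the test. Their levels summed to 9333 to 14626 CPM in B6 against 9541 to 11988 CPM in BALB/c, most of it from Kap.

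Slc7a12, a light chain also called Asc-2 whose heavy chain is not settled, was likewise lower in BALB/c. It measured 233, 166 and 214 CPM in B6 and 161, 147 and 153 CPM in BALB/c (GRCm38 chr3:14480697-14505830, plus strand). B6 replicate 2 lay close to the BALB/c libraries, and the strains did not overlap. Slc7a12 fell by 0.40 ± 0.11 on the log2 scale (SE, limma adjusted p = 0.0284). The call was lost without any one of the 5 libraries other than B6 replicate 2, at adjusted p of 0.0621 to 0.211, and was 0.0949 with no filter beyond 1 read.

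On the basolateral side the heavy chain is 4F2hc (CD98), encoded by Slc3a2. Slc3a2 (GRCm38 chr19:8706882-8723369, minus strand) measured 317, 286 and 309.6 CPM in B6 and 235, 229 and 262 CPM in BALB/c. The strains did not overlap, and BALB/c replicate 3 was the nearest to B6. Slc3a2 fell by 0.33 ± 0.09 on the log2 scale (SE, limma adjusted p = 0.0260). Its call was lost without B6 replicate 1 (0.126), B6 replicate 3 (0.0622), BALB/c replicate 1 (0.122) or BALB/c replicate 2 (0.124), with no filter beyond 1 read (0.0528) and with replicate number as a block (0.0574).

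Slc7a8 encodes LAT2, a light chain of 4F2hc that exchanges neutral amino acids across the basolateral membrane. It measured 211, 201 and 194 CPM in B6 and 156, 132 and 148 CPM in BALB/c (GRCm38 chr14:54722209-54781946, minus strand). All B6 libraries lay above all BALB/c libraries. The mean was 202 ± 8.41 CPM for B6 and 145 ± 12.4 CPM for BALB/c (SD, n = 3 each), and Slc7a8 fell by 0.47 ± 0.10 on the log2 scale (SE, limma adjusted p = 0.00283). Its adjusted p stayed at or under 0.0297 when any 1 library was left out. No other gene overlaps its exons or shares its 3′ words.

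Slc7a7 encodes y+LAT1, the 4F2hc light chain that passes cationic amino acids to the blood and is mutated in lysinuric protein intolerance. It measured 148, 90.5 and 132 CPM in B6 and 201, 184 and 168 CPM in BALB/c (GRCm38 chr14:54369442-54417780, minus strand). The BALB/c libraries were all higher, and B6 replicate 2 was the lowest. The log2 fold of Slc7a7 was 0.60 ± 0.14 (SE, limma adjusted p = 0.00486), and its adjusted p was 0.0542 with no filter beyond 1 read. Oxa1l, a gene for a mitochondrial inner membrane insertase on the opposite strand, overlaps its 3′ end and holds 72.5% of its 3′ words. Oxa1l measured 184, 118 and 159 CPM in B6 and 244, 229 and 224 CPM in BALB/c, and its log2 fold came to 0.61 ± 0.12 (SE, limma adjusted p = 0.00173). Slc7a7 reads were between 75.2% and 82.8% of Oxa1l reads in every library, and which of the genes the reads came from cannot be told apart.

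The other tested light chains, Slc7a5 (LAT1), Slc7a6 (y+LAT2) and Slc7a10 (Asc-1), did not pass the test. Slc7a10 shares 74.5% of its 3′ words with Lrp3 on the opposite strand. Its reads came to between 76.2% and 96.4% of Lrp3 reads in each library, and reads of this pair cannot be told apart. Slc7a5 measured 0.661, 1.41 and 0.560 CPM in B6 and 1.65, 3.42 and 1.60 CPM in BALB/c, without overlap, and its log2 fold was 0.76 ± 0.40 (SE, limma adjusted p = 0.285). Slc7a11, the cystine and glutamate exchanger xCT, had at most 7 reads in a library. In all, 2 of the 8 tested light chains were higher in BALB/c, 3 were lower and 3 did not pass, beside 4.17% higher and 4.93% lower over all genes tested.

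**Figure D2:**
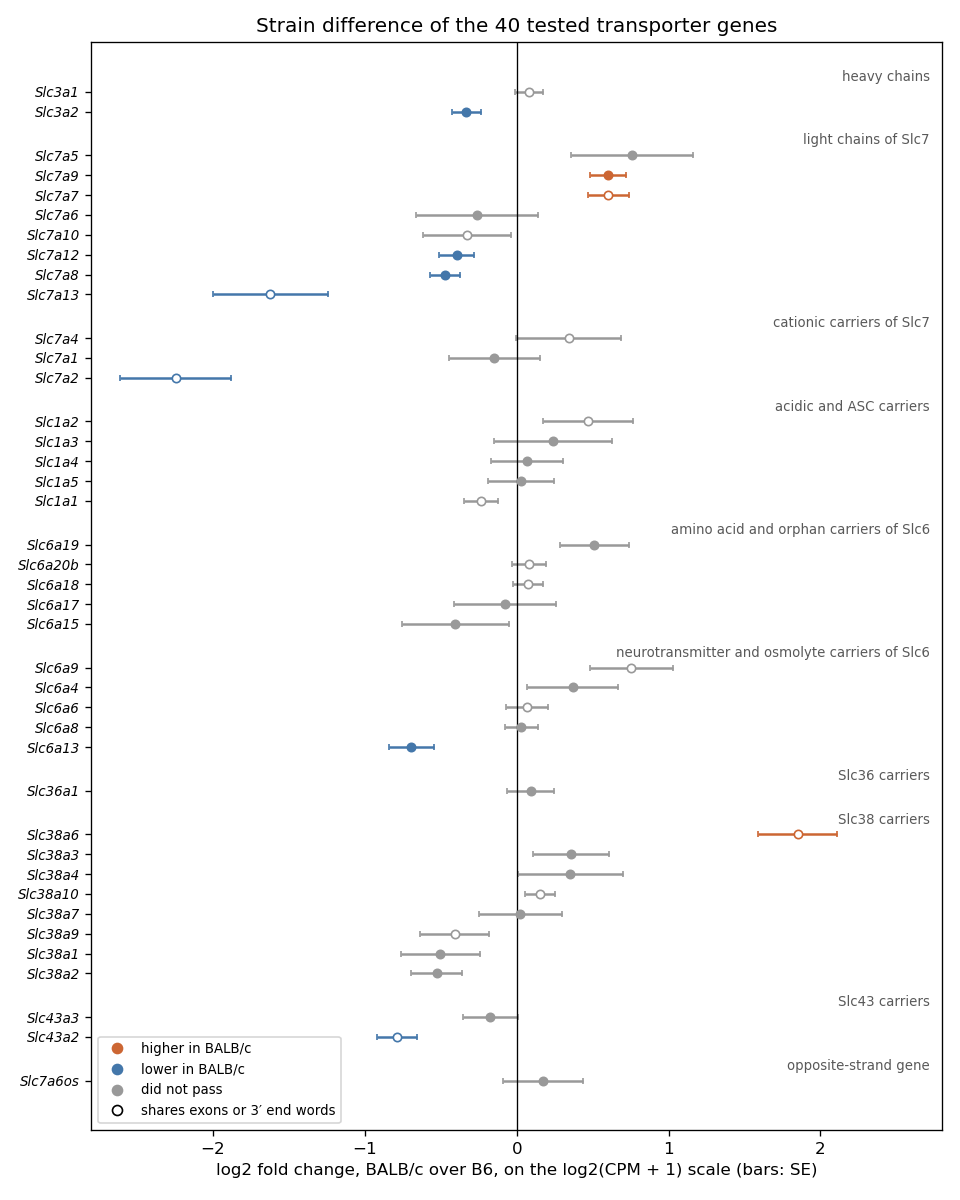
Log2 fold in log2(CPM + 1), BALB/c over B6 (x axis) for the 40 tested transporter genes, grouped by role (y axis), with SE bars. Colours mark genes that passed the test, and open symbols mark the 16 genes that share exons or 3′ words with another gene. Of the 8 light chains of Slc7 5 passed, of the 5 Slc1 genes 0, and of the 5 amino acid and orphan carriers of Slc6 0. Over all genes tested 9.09% passed.

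The light chains can be set against each other as shares of reads. These shares were chosen after the values were seen, from genes picked for their changes, so they are a description with no test. Slc7a9 made up 39.0%, 32.0% and 39.1% of the summed Slc7a9 and Slc7a8 reads in B6 and 52.3%, 59.0% and 53.8% in BALB/c. The share was thus 36.7% ± 4.05 for B6 and 55.1% ± 3.52 for BALB/c (SD, n = 3 each). The share of Slc7a8 in the summed Slc7a8 and Slc3a2 reads was 39.9% ± 1.35 for B6 and 37.5% ± 2.14 for BALB/c (SD, n = 3 each), and the strains overlapped.

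Slc7a2 encodes CAT-2, a surface carrier that brings arginine and other cationic amino acids into cells and needs no heavy chain. It measured 7.60, 6.25 and 5.83 CPM in B6 and 0.193, 0.590 and 1.10 CPM in BALB/c (GRCm38 chr8:40862396-40922308, plus strand). The lowest B6 library lay above the highest BALB/c library by several fold, and the BALB/c levels rest on 2, 5 and 11 reads, against 183 reads in B6 together. Mean CPM was 10.4 times higher in B6, and Slc7a2 fell by 2.25 ± 0.36 on the log2 scale (SE, limma adjusted p = 1.72e-04), the lowest log2 fold of the 40 tested genes. Its adjusted p was at most 0.00425 when any 1 library was left out. An opposite-strand gene that is no row of the files, Gm26584, overlaps its exons.

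The related cationic carrier Slc7a1 (CAT-1) did not pass the test, at 13.7, 27.9 and 7.62 CPM in B6 and 13.2, 12.9 and 12.7 CPM in BALB/c. Its spread in B6 was 10.4 CPM (SD), with B6 replicate 2 the highest, and its log2 fold was -0.15 ± 0.30 (SE, limma adjusted p = 0.843). Slc7a2 made up 32.5% ± 12.8 of the summed Slc7a2 and Slc7a1 reads for B6 and 4.60% ± 3.27 for BALB/c (SD, n = 3 each), again as a description with no test. Slc7a3, the remaining arginine carrier of this kind, had 0 reads in every library, which allows at most 0.290 to 0.354 CPM (3 reads; counting error only).

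Among the Slc43 carriers, which let large neutral amino acids pass without sodium, Slc43a2 (LAT4, a basolateral carrier of the proximal tubule) was lower in BALB/c. It measured 104, 134 and 109.7 CPM in B6 and 66.9, 55.3 and 78.8 CPM in BALB/c (GRCm38 chr11:75531694-75577575, plus strand). Every B6 library was above every BALB/c library. An opposite-strand gene, Gm45606, overlaps exons of Slc43a2. The mean was 116 ± 15.8 CPM for B6 and 67.0 ± 11.7 CPM for BALB/c (SD, n = 3 each), and Slc43a2 fell by 0.79 ± 0.13 on the log2 scale (SE, limma adjusted p = 2.84e-04). Slc43a3, which carries purine bases, did not pass at 25.2, 22.9 and 23.1 CPM in B6 and 24.0, 20.2 and 18.8 CPM in BALB/c (log2 fold -0.17 ± 0.18, SE, limma adjusted p = 0.652). Slc43a1 (LAT3) had between 2 and 18 reads in a library and was not tested.

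None of the 5 tested Slc1 genes and none of the 5 tested amino acid and orphan carriers of Slc6 passed the test. Several of these carriers face the tubular fluid. Over all genes tested 9.09% passed, so 0 of 5 in each group stands close to that share. Slc6a18, a carrier of neutral amino acids in the late proximal tubule, measured 316, 387 and 333 CPM in B6 and 373, 335 and 379 CPM in BALB/c, and its log2 fold came to 0.07 ± 0.10 (SE, limma adjusted p = 0.735). Slc6a19 (B0AT1), whose loss causes Hartnup disorder, measured 14.5, 11.6 and 10.2 CPM in B6 and 20.6, 14.0 and 18.5 CPM in BALB/c. The strains overlapped narrowly, and the log2 fold of Slc6a19 was 0.51 ± 0.23 (SE, limma adjusted p = 0.184). Slc6a20b, of the imino acid carrier group, shares 100% of its 3′ words with Sacm1l on the opposite strand and had a log2 fold, BALB/c over B6, of 0.08 ± 0.11 (SE, limma adjusted p = 0.756).

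Slc1a1 encodes EAAC1, the apical carrier of glutamate and aspartate whose loss causes dicarboxylic aminoaciduria. It measured 130.0, 136 and 126 CPM in B6 and 123, 95.3 and 116 CPM in BALB/c. The strains did not overlap, yet the log2 fold of Slc1a1 was -0.24 ± 0.11 and it did not pass (SE, limma adjusted p = 0.225). The small neutral carriers Slc1a4 (ASCT1) and Slc1a5 (ASCT2) had log2 folds of 0.07 ± 0.24 and 0.03 ± 0.22 (SE). The retinal and cerebellar glutamate carriers Slc1a7 and Slc1a6 had 0 reads in every library.

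**Figure D3:**
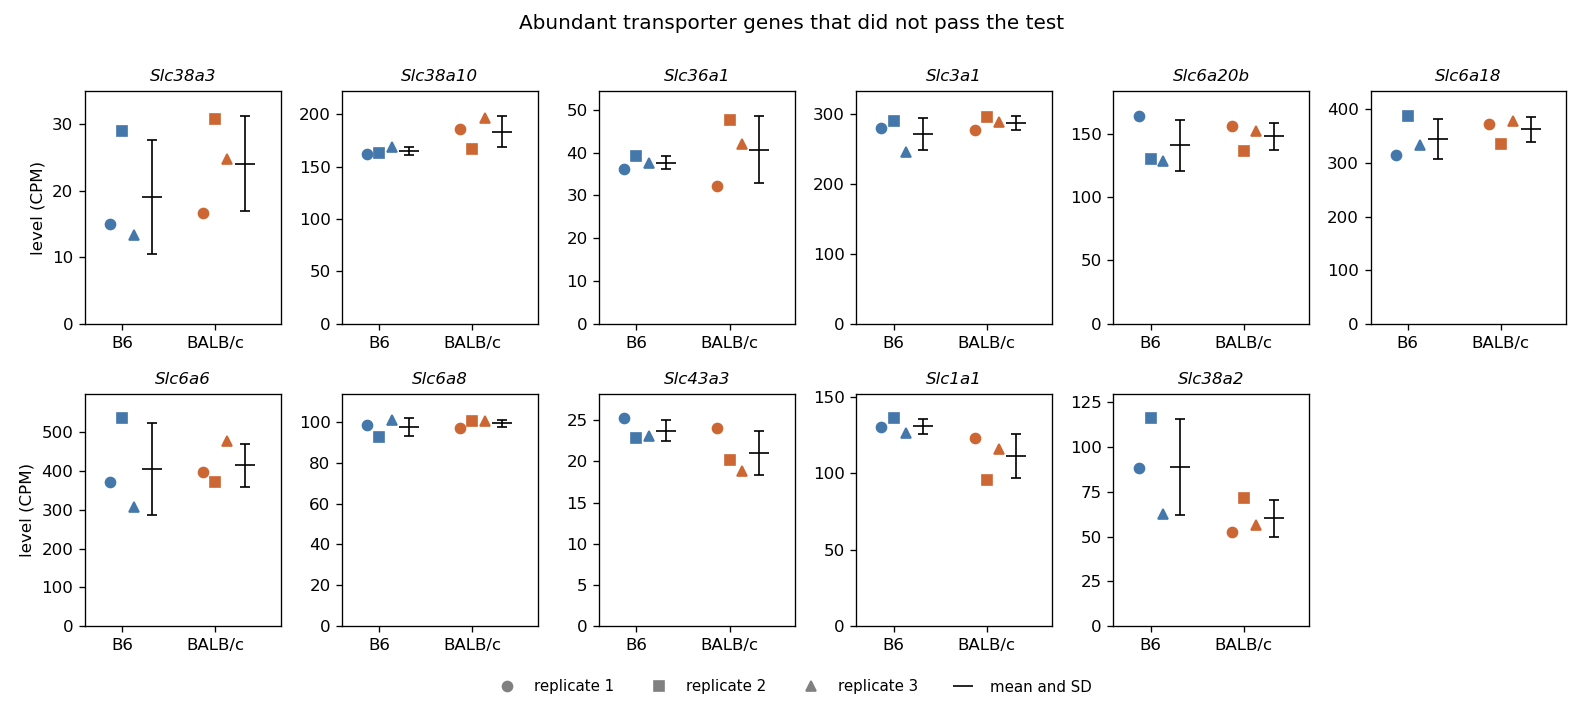
Level in CPM (y axis, from 0) of the 11 transporter genes that averaged 20 CPM or more in either strain and did not pass the test, by strain (x axis). Each symbol is 1 library, its shape the replicate number, and bars are the mean and SD of 3 libraries. B6 replicate 2 is the highest B6 library for Slc38a2, Slc38a3, Slc6a6, Slc6a18, Slc36a1, Slc3a1 and Slc1a1, and not for the other 4.

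Of the neurotransmitter and osmolyte carriers, Slc6a13 passed the test. It encodes GAT2, a carrier of GABA, taurine and betaine found in kidney and liver rather than at synapses. It measured 73.3, 72.4 and 74.0 CPM in B6 and 59.1, 36.1 and 42.4 CPM in BALB/c (GRCm38 chr6:121300227-121337733, plus strand). The B6 libraries lay close together, and all 3 BALB/c libraries were lower, with replicate 1 nearest to B6. The mean was 73.2 ± 0.825 CPM for B6 and 45.9 ± 11.9 CPM for BALB/c (SD, n = 3 each), and Slc6a13 fell by 0.69 ± 0.15 on the log2 scale (SE, limma adjusted p = 0.00359).

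The taurine carrier Slc6a6, which cells use to hold their volume in the salty medulla, measured 371, 535 and 306 CPM in B6 and 397, 371 and 477 CPM in BALB/c. It did not pass (log2 fold 0.07 ± 0.14, SE, limma adjusted p = 0.840), and the sign of its fold turned without B6 replicate 3 (-0.11) and without BALB/c replicate 3 (-0.04). The creatine carrier Slc6a8 measured 98.5, 92.4 and 101 CPM in B6 and 97.2, 100.3 and 100.4 CPM in BALB/c. Its log2 fold was 0.03 ± 0.11 (SE, limma adjusted p = 0.920), the strains overlapped, and the sign turned without B6 replicate 2 (-0.0060). Slc6a12, the betaine carrier that answers to medullary salt, was not tested at 1 to 29 reads. The 29 were in B6 replicate 2, the library where Aqp2 was highest.

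Of the carriers known from nerve endings, several had few or no reads and 0 passed the test. Slc6a11 (GABA), Slc6a3 (dopamine) and Slc6a5 (glycine) had 0 reads in every library, and Slc6a2 (noradrenaline) had at most 5. Slc6a4 (serotonin) measured 5.84, 5.44 and 3.59 CPM in B6 and 7.16, 7.08 and 5.61 CPM in BALB/c, and its log2 fold came to 0.37 ± 0.30 (SE, limma adjusted p = 0.534). The 6 markers of nerve and glia summed to between 8.61 and 13.5 CPM, both in BALB/c libraries, with B6 in between. Slc6a9 (glycine, GlyT1) measured 6.50, 9.18 and 4.93 CPM in B6 and 11.0, 14.5 and 10.6 CPM in BALB/c, without overlap. Its log2 fold was 0.75 ± 0.27 (SE, limma adjusted p = 0.0917), and it passed without B6 replicate 2. Of its 3′ words 100% are shared with Ccdc24.

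Slc38 carriers move glutamine and other small neutral amino acids with sodium, at the surface or in lysosomes. Slc38a6 (SNAT6), one of the less studied of them, had the highest log2 fold of the 40 tested genes. It measured 7.82, 3.93 and 5.49 CPM in B6 and 26.5, 24.1 and 18.1 CPM in BALB/c (ENSMUSG00000044712, GRCm38 chr12:73286779-73354049, plus strand). The lowest BALB/c library exceeded the highest B6 library by more than the spread within either strain. The mean was 5.75 ± 1.95 CPM for B6 and 22.9 ± 4.31 CPM for BALB/c (SD, n = 3 each), a CPM ratio of 3.98, and the log2 fold was 1.85 ± 0.26 (SE, limma adjusted p = 2.75e-05). Its adjusted p was at most 8.94e-04 without any 1 library. Of its 3′ words 23.5% occur in other genes' transcripts (D10Wsu102e, Gm42860 and Noct).

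Slc38a2 (SNAT2), which cells induce when amino acids are short or salt is high, missed the threshold narrowly. It measured 88.1, 116 and 62.7 CPM in B6 and 52.3, 71.6 and 56.4 CPM in BALB/c. The strains overlapped, since B6 replicate 3 lay under BALB/c replicate 2, and B6 replicate 2 was the highest. Its log2 fold was -0.53 ± 0.17 (SE, limma adjusted p = 0.0501). Over the alternatives its adjusted p ranged from 0.00286 (without B6 replicate 3) to 0.311 (variance prior without a trend). It passed without B6 replicate 3 or BALB/c replicate 2, with replicate number as a block (0.0259) and with a pseudocount of 5 CPM (0.0461), and did not pass under the others. Without B6 replicate 2 the log2 fold shrank to -0.32 (limma adjusted p = 0.257).

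None of the other Slc38 and Slc36 genes passed. Slc38a3 (SNAT3), which supplies glutamine for renal ammonia production, measured 15.0, 28.9 and 13.3 CPM in B6 and 16.6, 30.8 and 24.7 CPM in BALB/c (log2 fold 0.36 ± 0.25, SE, limma adjusted p = 0.455). Replicate 2 was the highest library of both strains. Slc38a10, a less studied member of the family, measured 162, 163 and 169 CPM in B6 and 186, 167 and 196 CPM in BALB/c (log2 fold 0.15 ± 0.10, SE, limma adjusted p = 0.416). An opposite-strand gene, Gm11769, overlaps its exons. Slc38a9, the lysosomal arginine sensor upstream of mTORC1, was lower in every BALB/c library at 10.8, 9.67 and 11.2 CPM against 13.3, 13.5 and 16.3 CPM in B6, but did not pass (log2 fold -0.41 ± 0.23, SE, limma adjusted p = 0.315). Slc36a1 (PAT1), a proton-coupled carrier of lysosomes and apical membranes, measured 36.1, 39.1 and 37.7 CPM in B6 and 32.2, 47.6 and 42.1 CPM in BALB/c. Its log2 fold was 0.09 ± 0.16 (SE, limma adjusted p = 0.805) and turned to -0.03 without BALB/c replicate 2.

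Of the 24 genes that were not tested, 11 had 0 reads in every library and the other 13 had at most 29 reads in a library. The 11 included Slc1a6, Slc1a7, Slc6a3, Slc6a5, Slc6a11, Slc7a3, Slc36a3, Slc38a5, Slc38a8 and Slc36a1os. The low readers included Slc36a2, the apical carrier of glycine and proline, with at most 5 reads, and Slc6a20a, with at most 8.

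A pair of the transporter genes that passed lie head to head with a neighbour, their starts close together and their transcription running apart. They are shown because Slc3a2 and its neighbour passed the test in opposite directions. Slc38a6 starts 69 bases from Trmt5, a tRNA methyltransferase gene on the minus strand, and Slc3a2 starts 106 bases from Snhg1, a host gene of small nucleolar RNAs on the plus strand. The stretches between the gene starts follow, from RefSeq promoter windows of GRCm38.p6, plus strand, 5′ to 3′, at chr12:73286711-73286778 and chr19:8723370-8723474. Capitals mark TGACGTCA, the cyclic AMP response element.
Slc38a6 and Trmt5: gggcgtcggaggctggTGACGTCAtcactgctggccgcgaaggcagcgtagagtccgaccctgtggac
Slc3a2 and Snhg1: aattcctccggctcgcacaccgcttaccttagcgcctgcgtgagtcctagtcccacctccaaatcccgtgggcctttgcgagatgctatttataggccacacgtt

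Trmt5 measured 0.440, 2.02 and 2.58 CPM in B6 and 2.42, 5.66 and 4.61 CPM in BALB/c. Slc38a6 was higher in BALB/c, and the log2 fold of Trmt5 was 1.01 ± 0.40 without passing the test (SE, limma adjusted p = 0.131). Snhg1 measured 14.0, 13.2 and 17.4 CPM in B6 and 28.4, 34.8 and 25.8 CPM in BALB/c, without overlap. Snhg1 rose, and its log2 fold came to 0.95 ± 0.19 (SE, limma adjusted p = 0.00199), beside Slc3a2, which fell by 0.33. These neighbours were chosen after their values were seen.

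**Figure D4:**
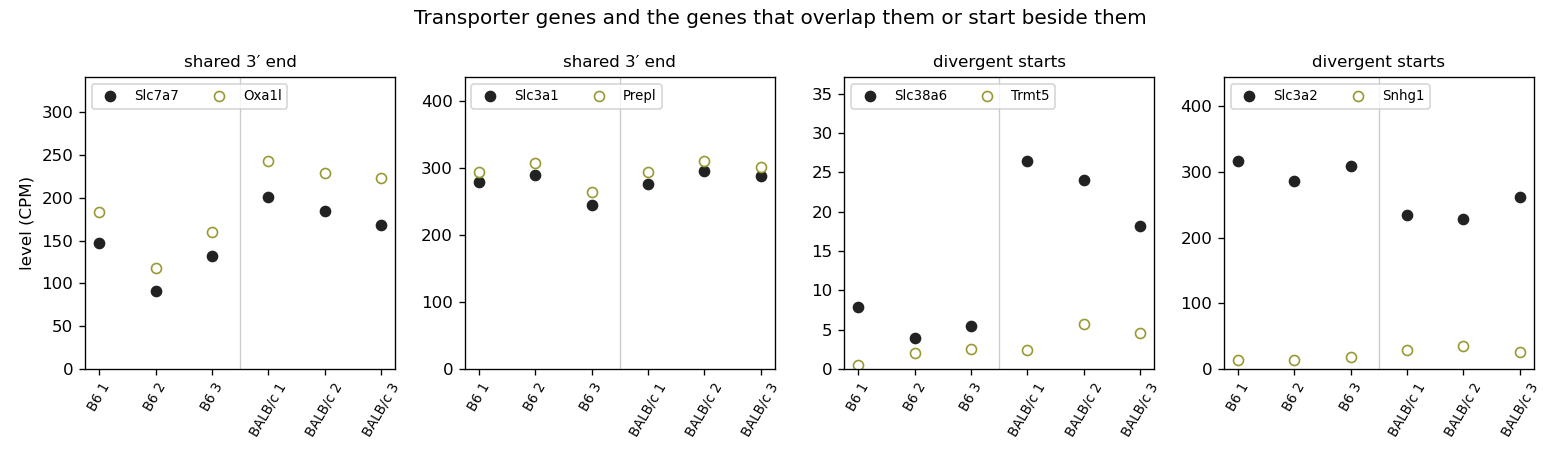
Level in CPM (y axis, from 0, a separate scale per panel) in each of the 6 libraries (x axis) for transporter genes (filled) and the genes that share their 3′ ends or start beside them (open). Slc7a7 follows Oxa1l and Slc3a1 follows Prepl from library to library, while Slc3a2 is lower and Snhg1 higher in BALB/c.

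The motif TGACGTCA, searched on both strands (it reads the same on each), was found in 588 of 32851 RefSeq promoter windows of 300 bases around a gene's start, or 1.79%. Windows, 67 in all, were given for 46 of the 64 transporter genes. Slc38a6 was the 1 gene among them that held it, in 1 of the 67 windows. TGATGCAA, a core of the element through which ATF4 switches on genes when amino acids are short, was searched on both strands too. It was found in 294 windows (0.895%) and in 4 of the 67 transporter windows. These belong to 3 of the 46 transporter genes, Slc1a4, Slc7a11 and Slc7a7. A match describes the letters in the window and not a bound site.

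Genes that work with these transporters were read from lists. Among the genes for collectrin and the apical scaffold, 1 was higher and 2 were lower in BALB/c. Tmem27 (collectrin), which carries Slc6a18 and Slc6a19 to the brush border, rose from 1110.1 ± 171 to 1442 ± 16.2 CPM (SD, n = 3 each; log2 fold 0.39, limma adjusted p = 0.0137), and the call was lost without B6 replicate 1, BALB/c replicate 1 or BALB/c replicate 2. Slc9a3r1 (NHERF1), a scaffold of brush border proteins, fell by 0.90 on the log2 scale (limma adjusted p = 1.17e-04). Pdzk1, another scaffold, fell by 0.37 (limma adjusted p = 0.00989), but its 3′ words are all shared with Gpr89 and its call was lost without B6 replicate 1, BALB/c replicate 1 or BALB/c replicate 2.

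Among 9 tested carriers of amino acids, peptides and vesicular transmitters outside the named families, 2 were lower in BALB/c and 0 higher. Slc15a2 (PEPT2), which takes up filtered di- and tripeptides, measured 186 ± 30.3 CPM for B6 and 90.3 ± 1.53 CPM for BALB/c (SD, n = 3 each; log2 fold -1.02, limma adjusted p = 1.54e-06). Slc18a1 (VMAT1), a vesicular monoamine carrier, measured 93.8 ± 4.15 and 37.4 ± 6.77 CPM (SD, n = 3 each; log2 fold -1.32, limma adjusted p = 4.40e-07). Slc16a10 (TAT1), the basolateral carrier of aromatic amino acids, did not pass (log2 fold -0.53, limma adjusted p = 0.0571), and with 1 library left out it passed without replicate 3 of either strain but in no other such fit, where its adjusted p reached 0.273 (limma).

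A list of peptidases and enzymes of N-acyl amino acids, at the brush border and in tubule cells, was split. Of its 15 genes, 5 were higher, 2 were lower and 8 did not pass, beside 4.17% higher and 4.93% lower over all genes tested. The 5 were Pm20d1 (log2 fold 1.86), Acy1 (0.85), Dpep1 (0.69), Mme (0.61) and Acy3 (0.55), and the 2 were Folh1 (-0.46) and Anpep (-0.39). Of the 5, Dpep1 and Mme are peptidases, while Pm20d1, Acy1 and Acy3 act on N-acyl amino acids. Folh1 lost its call without any 1 of the libraries other than B6 replicate 2, and Anpep without any 1 other than B6 replicate 3. Of 16 tested genes of amino acid sensing by mTORC1, 0 were higher and 2 lower, Lamtor3 (log2 fold -0.76, limma adjusted p = 0.00715) and Mtor (-0.52, limma adjusted p = 0.0450, lost without any 1 of 4 libraries, namely replicates 1 and 2 of both strains). Of 14 tested genes of the ATF4 response, 0 were higher and 2 lower, the serine and glycine enzymes Psat1 (log2 fold -0.69) and Shmt2 (-0.56). Shmt2 lost its call without replicate 2 of either strain, and Psat1 without these or B6 replicate 1 or BALB/c replicate 3. Atf4 itself did not pass (log2 fold -0.15, limma adjusted p = 0.441). Of 10 regulators of tubular transporters, 0 passed (limma), and 2 had an unadjusted p under 0.05. Over all genes tested 4.17% were higher and 4.93% lower, beside which the counts of 2 in these lists stand.

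Markers of the straight part of the proximal tubule, where Slc7a13 is at home, were split. Of 7 such genes 1 was higher (Acy3) and 2 were lower (Slc5a1 and Slc22a13), and they summed to 1088 to 1174 CPM in B6 against 1125 to 1534 CPM in BALB/c. Of 5 markers of the convoluted part, where most amino acid uptake takes place, Slc5a12 was higher and Slc4a4 and Slc22a8 were lower. Beside the counts of both lists, 4.17% of all genes tested were higher and 4.93% lower. Slc22a13 and Slc22a8 lost their calls without any 1 of 3 libraries, BALB/c replicates 1 and 2 and, in B6, replicate 2 for the first and replicate 1 for the second.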

How the data were processed

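RNA of whole kidney was read in 6 libraries. The authors used Bowtie2, bedtools and mm10, per the submitters' processing notes. Their versions, the annotation, strand use and the treatment of reads that align more than once were not stated there. The deposited log2 values (1 per symbol and library) were taken as log2(CPM + 1), worked out from the values: lowered by 1 after raising to linear scale, they summed to 980188 to 1043599 per library, and every value at or below 20 reads was a whole number of reads within 0.1 read.

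limma 3.58.1 (R 4.3.3) took the deposited log2 values of the 13317 genes with a deposited log2 value of at least 1 in at least 3 libraries, with strain as the sole term and a variance prior that followed the level. P-values are two-sided and adjusted by Benjamini-Hochberg over all genes tested, with a threshold of 0.05. There were 4 residual degrees of freedom and 18.4 from the prior. A separately written fit of the same form was tried on simulated counts, with results that are not reported here. Reads of same-strain libraries differed beyond sampling noise, at a chi-square of 7.87 to 16.9 per degree of freedom.

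The transporter genes and the lists were chosen with earlier results of these data known. Named are transporter genes that passed or had a mean of at least 20 CPM in either strain; others were chosen after their values were seen. Coordinates and overlaps are from GENCODE M21 (GRCm38). Words of 50 bases, every 5 bases of the last 300, measured shared 3′ ends. The 35 symbols on several rows include 0 transporter genes. Figures were drawn with matplotlib 3.10.9. Alternatives were the pseudocount, the filter, the scaling, the variance prior, a replicate block, limma-voom on recovered reads and leaving out each library. Some genes of the families and lists are not reported here.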

Additional observations from a re-analysis of the deposited data

How the results depend on the processing

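All 10 transporter calls were made again under pseudocounts of 0.5 and 5 CPM, under total-read (with and without the 45S row), upper quartile and median-ratio scaling, with a robust variance prior and by limma-voom on recovered reads. With no filter beyond 1 read, 7 of the 10 remained, without Slc3a2, Slc7a12 and Slc7a7. A minimum mean of 5 CPM kept 8 and left Slc7a13 and Slc7a2 untested. A variance prior without a trend gave 1 transporter gene higher and 2 lower, and 227 genes higher and 266 lower over all genes. Of 376 results of the 21 named transporter genes under alternatives, 347 kept direction and side of the threshold, 21 lost the call, 4 gained one and 4 changed sign.

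Leaving out 1 library gave 350 to 534 genes higher and 415 to 604 lower, against 555 and 656 with all libraries, the fewest without BALB/c replicate 1 and B6 replicate 1. Transporter genes then numbered 3 to 4 higher and 4 to 7 lower (4 without B6 replicate 1), and their median log2 fold lay between -0.0025 and 0.0874, the lowest without B6 replicate 3. The log2 folds that changed sign ranged from -0.0295 to 0.25 for Slc36a1, from -0.11 to 0.29 for Slc6a6 (-0.04 without BALB/c replicate 3) and from -0.0060 to 0.0565 for Slc6a8. Counting only the 24 tested transporter genes that share neither exons nor 3′ words with another gene, an alternative chosen after seeing the data, left 1 higher and 4 lower.

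Same-numbered libraries of the strains did not deviate together (Pearson r between -0.084 and 0.012), so the numbers were not taken to pair them. A replicate block gave 10 transporter calls, 9 of them shared with the fit without it: Slc3a2 was lost (adjusted p = 0.0574) and Slc38a2 gained (0.0259). Over all genes the block gave 453 higher and 524 lower.

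Depth set a floor of 0.290 to 0.354 CPM (3 reads, counting error only), and 24 of the 64 transporter genes were too low to test.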
